A study of Mus musculus with 2 samples.

Results

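Cells with UMIs of Cd209a and of the class II genes H2-Aa and H2-Eb1 were described in 2 droplet libraries labelled as T cells from a mouse melanoma model on day 5. A UMI is a molecular tag that counts 1 captured transcript. Members had at least 1 UMI of each of these 3 genes and none of Fscn1, Xcr1, Clec9a, Cd79a and C1qa. The rule found 75 cells of 17390, of which 44 were untreated and 31 treated. The working label of the set was conventional type 2 dendritic cells, and the measured values went against that label in a large share of the untreated members. The set is therefore called the Cd209a-positive class II cells.

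Both libraries came from the NILER model, which goes back to the Nras Q61R mouse melanoma line NIL and owes a higher mutation load to ultraviolet irradiation. The control library was untreated. The other was treated with Trametinib, a MEK inhibitor, together with BGB-283, a RAF inhibitor. The labels used here describe neither the sort nor the number of animals, so the share of any cell type can reflect the sort. With 1 library per group no test was possible, and treatment and library cannot be told apart.

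Conventional type 2 dendritic cells take up antigen in tissues and present it on MHC class II molecules, mainly to CD4 T cells. They usually carry SIRPa and CD11b and depend on the transcription factors IRF4 and, for some subsets, KLF4. Cd209a encodes a C-type lectin of the DC-SIGN family. Plasmacytoid dendritic cells are a separate lineage, known for type I interferon, that can also carry class II molecules.

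Cd209a was the scarce gene of the rule. It had a UMI in 82 untreated and 45 treated cells, whereas H2-Aa had one in 2107 and 812. All 3 required genes were present in 66 untreated and 41 treated cells, and 22 and 10 of these were removed by a UMI of an excluded gene. Clec9a removed 11 and 2 cells, C1qa 7 and 4, Fscn1 6 and 1, Xcr1 0 and 2, and Cd79a 0 and 1, with some cells counted under more than 1 gene. Just outside the rule, 10 untreated and 5 treated cells were removed by only 1 UMI. Just inside it, 12 untreated and 8 treated members had only 1 UMI of Cd209a. A further 397 untreated and 138 treated cells met every other condition without Cd209a. Members made up 0.472% of the untreated library (Clopper-Pearson 95% interval 0.344% to 0.634%) and 0.384% of the treated library (0.261% to 0.544%), and these intervals overlapped. All intervals here cover counting error only.

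Members were sequenced more deeply than most cells. Their UMIs summed to 577741 (untreated) and 417717 (treated), with medians of 9301.5 and 12731 UMIs per cell. The libraries as a whole had medians of 6155 and 5987.5. The median mitochondrial share was 4.5% and 2.74% in members. The libraries shared 35 cell barcodes, and 1 member carried such a barcode.

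The untreated members fell into cells with and cells without plasmacytoid genes. Siglech, Klk1, Ccr9, Ly6d and Cox6a2, which mark plasmacytoid dendritic cells, were counted in each cell after their values had been seen. Of 44 untreated members, 23 had UMIs of at least 4 of these 5 genes, 17 had none, 1 had 1 and 3 had 2. Of 31 treated members, 30 had none and 1 had all 5. The 24 cells with 3 or more are called plasmacytoid-gene cells below, and the other 51 (21 untreated, 30 treated) the remaining cells. The remaining cells had medians of 18275 (untreated) and 12796.5 (treated) UMIs per cell, the reverse of the order in all members. Raw UMIs per cell and counts of cells with UMIs given for them are not corrected for this depth gap. The same 5 genes marked 170 untreated and 15 treated cells of the whole libraries, and 48 and 5 of those had Cd209a.

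**Figure D1:**
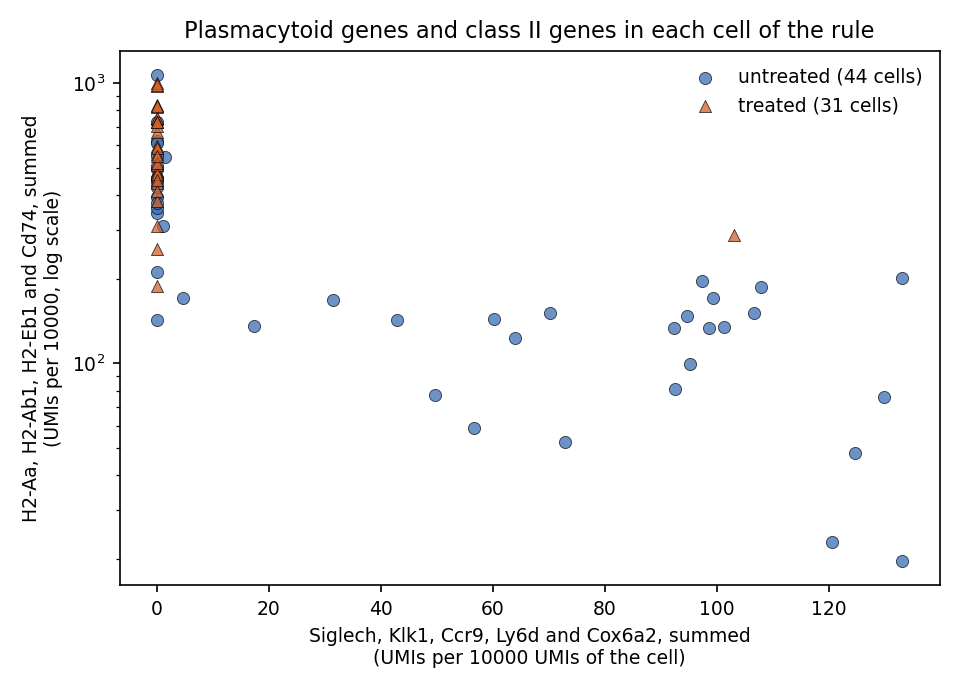
Each point is 1 member cell, with the summed UMIs of 5 plasmacytoid genes per 10000 UMIs of the cell on the x axis and the summed UMIs of 4 class II genes per 10000 on a log y axis. The 23 untreated plasmacytoid-gene cells lie to the right and at or below 201 on the y axis, and 1 treated cell lies at 103 on the x axis and 286 on the y axis.

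In the 23 untreated plasmacytoid-gene cells, Siglech had 7 UMIs in the lowest, 15 in the median and 33 in the highest cell, or 2088 CPM (counts per 1000000 of the summed UMIs). In the 21 untreated remaining cells Siglech had UMIs in 3 cells, at 0 in the median and 11 in the highest cell. That highest cell also had Ccr9 and fell among the remaining cells because it held 2 of the 5 genes. Tcf4, a transcription factor required for plasmacytoid cells, was at 1686 CPM in the plasmacytoid-gene cells and 149.6 CPM in the untreated remaining cells. Bst2 was at 3994 against 356.6 CPM and Irf8 at 3180 against 319.2 CPM. Tlr7, an endosomal RNA sensor, had UMIs in 13 of the 23 cells and in none of the 51 remaining cells. Il12a had UMIs in 8 of the 23 and in none of the 51. In the untreated T cell comparison set, described below, these genes had a UMI in 1.86% and 0.0176% of cells.

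The untreated plasmacytoid-gene cells lacked several genes of the label. Itgam, which encodes CD11b, Zbtb46, a factor of conventional dendritic cells, the decoy receptor gene Il1r2, Il1b and Cd83 had no UMI in the 23 cells, which allows a level of up to 17 CPM for each gene. S100a4 had 1 UMI in 1 of them and a median of 24 UMIs in the untreated remaining cells. Other lectins of the label were present. Clec10a was at 582.7 CPM in the plasmacytoid-gene cells and 209.5 CPM in the untreated remaining cells, and Cd209d at 390.4 and 134.7 CPM. Sirpa was at 181 and 144.6 CPM, with overlapping intervals (124 to 256 and 110 to 187). Ighm, the immunoglobulin heavy chain gene, was at 1041 CPM in all 23 cells while the B cell genes Ms4a1 and Pax5 had no UMI.

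T cell transcripts were present in many of the remaining cells. The summed UMIs of Cd3e, Cd3d, Cd3g and Trac reached 10 or more in 12 of 21 untreated and 8 of 30 treated remaining cells, and in no plasmacytoid-gene cell. At least 1 such UMI was found in 14 of 21, 10 of 30 and, among plasmacytoid-gene cells, 6 of 23 and 1 of 1. Per 10000 UMIs these 4 genes had a median of 6.43 and a highest value of 43.6 in the untreated remaining cells, and 0 and 32.4 in the treated ones. In the T cell comparison set (Cd3e and Cd3d present, H2-Aa, C1qa and Cd79a absent) the medians were 35.7 and 39.7. No doublet caller was run. The remaining cells without any T cell UMI were 7 untreated and 20 treated cells. They held fewer than 3 of the 5 plasmacytoid genes, but 3 of the 7 untreated cells had UMIs of 1 or 2 of them, 14 in the highest. With 7 untreated cells a single cell can set a level. Values called without the highest cells leave out, in each library, the cell with the most UMIs of the gene, or of the list per 10000.

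**Figure D2:**
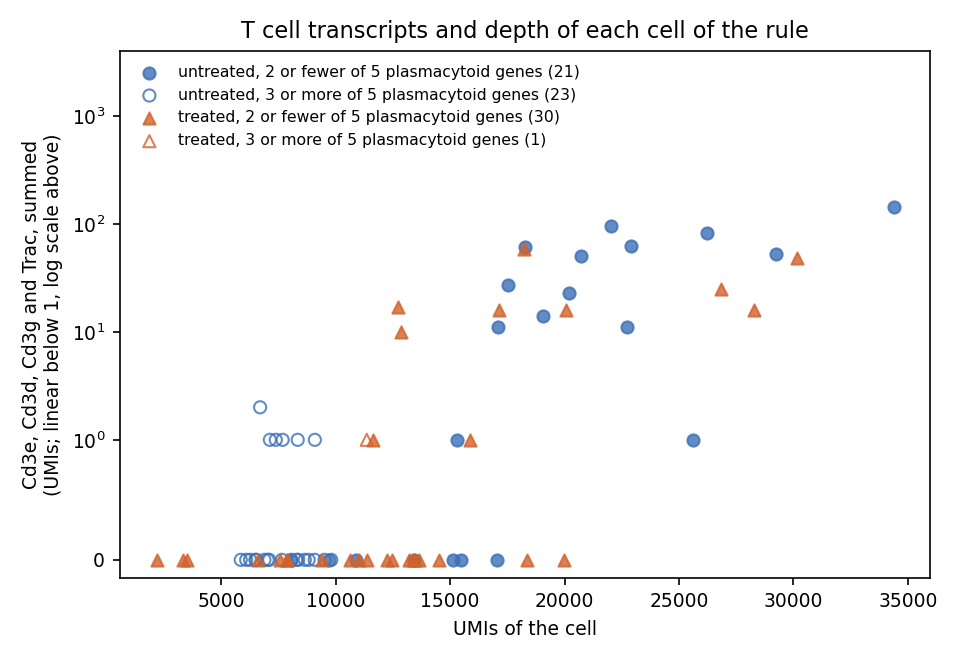
Each point is 1 member cell, with its UMIs on the x axis and the summed UMIs of Cd3e, Cd3d, Cd3g and Trac on a y axis that is linear below 1 and logarithmic above. The 20 cells with 10 or more such UMIs are all filled symbols, that is, cells with 2 or fewer of the 5 plasmacytoid genes, and have 12731 UMIs or more.

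Markers of other cell types were present in members too. Of 16 macrophage markers, 13 had UMIs in untreated and 12 in treated members, at summed levels of 0 to 20.6 and 0 to 41.6 per 10000, and Mertk was at 0 in both libraries. Of 13 monocyte markers, 9 and 10 had UMIs, at 2.85 to 95.4 and 1.76 to 37 per 10000. The monocyte medians were 39.9 and 10.6 per 10000 in members, against 9.08 and 11.8 in the macrophage set and 7.72 and 5.61 in the T cell set. Vcan and Ly6c1 were at 0 in both. Cell type lists for cDC1 (Xcr1 and Clec9a at 0 by the rule) had 11 and 10 of 14 genes present, with medians of 13.3 and 5.86 per 10000. These untreated medians include the plasmacytoid-gene cells, which carry genes of both lists. Of the untreated UMIs, the remaining cells held 618 of 1201 for Plac8 and 94 of 333 for Ly6c2, both monocyte list genes. They held 128 of 690 for Irf8 of the cDC1 list. Mature dendritic markers had 11 and 12 of 14 present, with medians of 6.79 and 5.07, and Il12b was at 0 in both libraries. B cell markers had 4 and 2 of 10 present, natural killer markers 4 and 2 of 8, neutrophil markers 1 and 4 of 6, red cell markers 2 and 1 of 5, and stromal or tumour markers 0 and 1 of 6 measured. Their part in the results was not tested.

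Compared with the other cells of their own library, members were marked by lectins and by genes of both kinds of cell. The 15 genes with the highest fold over all other cells, taking the lower of the 2 libraries, were Cd209a, Cd209d, Ifitm1, Ctnnd2, Clec10a, Mgl2, Bcl11a, Cdh1, H2-DMb2, Kmo, Cox6a2, Cd300a, Rnase6, Napsa and Ccr9. Cd209a is in the rule, and none of these folds was tested. Of the other cells, 8568 of 9268 untreated and 7447 of 8047 treated had a T cell UMI. The folds are thus mostly over cells with T cell transcripts. Bcl11a, for 1, was nearly as high in untreated plasmacytoid-gene cells outside the rule as in those inside it. Mgl2, a galactose-binding lectin gene, was at 477.7 CPM in untreated members against 18.2 in the other cells, and at 1238 against 8.51 CPM in treated ones. Ifitm1 was at 2117 against 64.4 CPM and at 1853 against 40.5 CPM. Ifitm1 had no UMI in the 23 untreated plasmacytoid-gene cells and UMIs in 18 of 21 untreated and 25 of 30 treated remaining cells. Cox6a2 and Ccr9 in treated members came from 1 cell, with 23 and 43 UMIs.

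**Figure D3:**
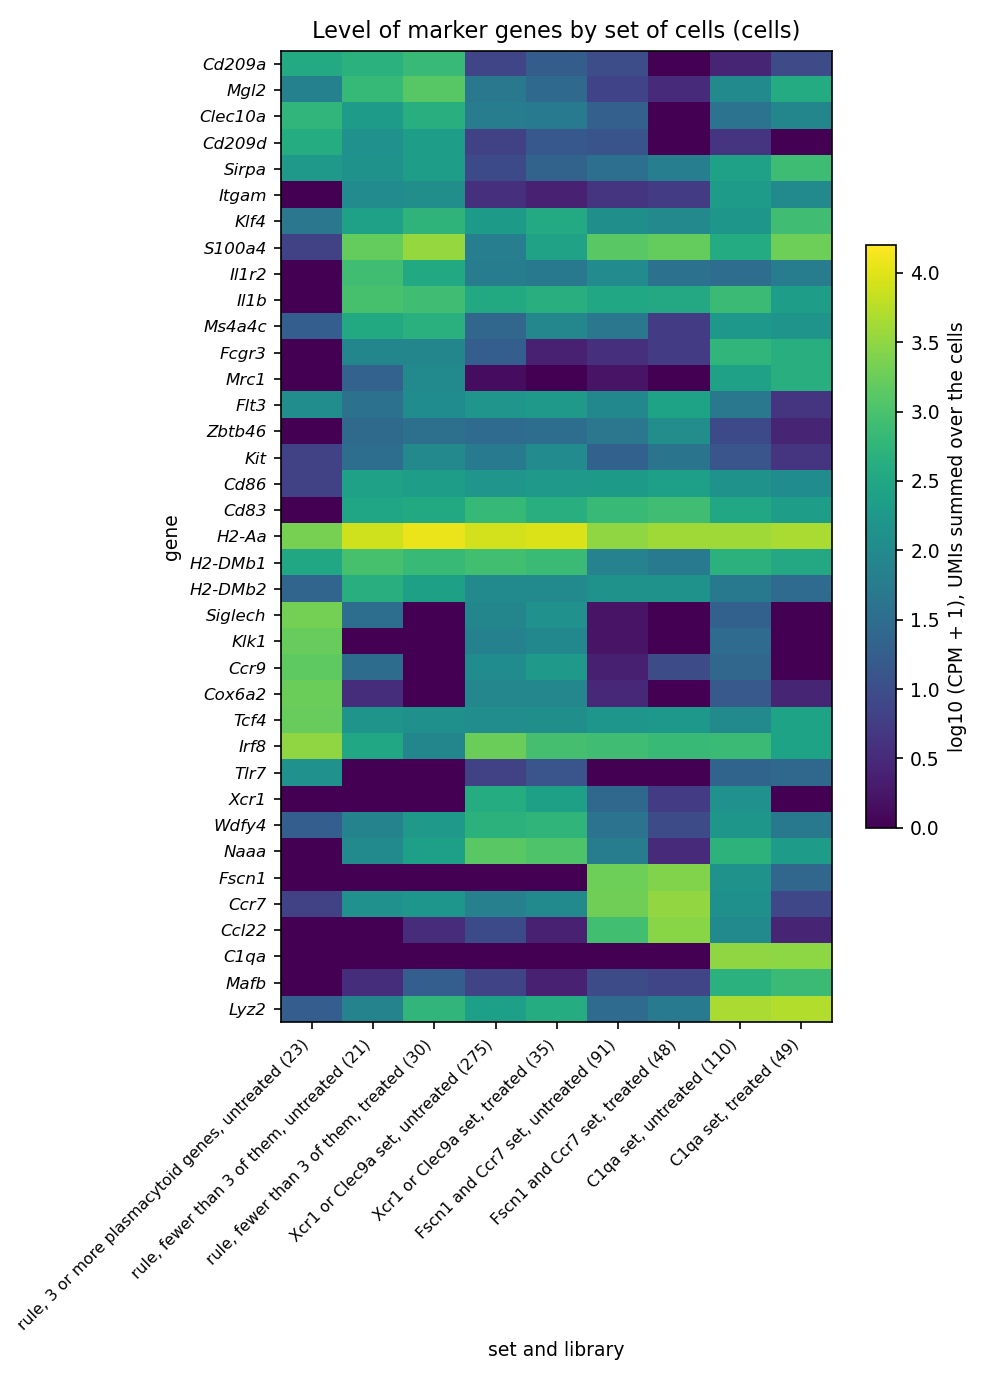
Colour gives log10 of (CPM + 1) for 37 genes, with UMIs summed over the cells of each set and library; the 1 treated plasmacytoid-gene cell is not drawn. The untreated plasmacytoid-gene cells are high in Siglech, Klk1, Ccr9 and Cox6a2 and at 0 in Itgam, Il1b and Cd83, and genes that a set's rule excludes are at 0 by construction.

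For Sirpa the remaining cells stood between the comparison sets. The cDC1 set (H2-Aa with Xcr1 or Clec9a) held 275 and 35 cells, the mature set (H2-Aa, Fscn1 and Ccr7) 91 and 48, and the macrophage set (H2-Aa and C1qa) 110 and 49. Sirpa, which encodes an inhibitory receptor for CD47, was at 144.6 and 214.1 CPM in the untreated and treated remaining cells, against 7.89 and 20.5 CPM in the cDC1 set and 250 and 778 CPM in the macrophage set. Fcgr3 was at 84.8 and 83.7 CPM, against 581 and 446 CPM in the macrophage set. Flt3, the growth factor receptor gene of dendritic cells, was at 37.4 CPM (20.9 to 61.7) and 108.3 CPM (78.7 to 145), against 153 and 180 CPM in the cDC1 set. Irf4 was low, at 29.9 and 34.5 CPM, with UMIs in 8 of 21 and 7 of 30 cells. These sets were defined from measured values, so the levels are descriptions.

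Class II genes were lower in the untreated plasmacytoid-gene cells than in most remaining cells, with overlapping ranges. The 1 treated plasmacytoid-gene cell was at 286 per 10000 for the sum described next, inside the range of the remaining cells. The summed UMIs of H2-Aa, H2-Ab1, H2-Eb1 and Cd74 per 10000 were 19.7 in the lowest, 134 in the median and 201 in the highest of the 23 untreated plasmacytoid-gene cells. In the untreated remaining cells they were 136, 445 and 1069, and in the treated ones 189, 588 and 999.9. The untreated and treated remaining cells overlapped over most of their range. The median was 452 and 491 in the cDC1 set, 82.8 and 137 in the mature set, 144 and 195 in the macrophage set and 0 in the T cell set of either library. H2-Aa is absent from the T cell set and present in the other sets by definition, so part of that contrast is built in. The upstream stretches of the 2 class II genes of the rule are shown because both carry the Y box, which nuclear factor Y binds in class II promoters and which is written here in capitals.
H2-Aa: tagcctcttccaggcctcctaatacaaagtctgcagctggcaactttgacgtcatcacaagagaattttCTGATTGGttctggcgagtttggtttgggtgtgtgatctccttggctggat
H2-Eb1: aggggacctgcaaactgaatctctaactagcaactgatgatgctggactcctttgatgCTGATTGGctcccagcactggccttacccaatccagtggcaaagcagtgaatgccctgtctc
Both are the 120 bases before the gene start in RefSeq (build GRCm38.p6), at chr17:34287824-34287943 on the minus strand for H2-Aa and at chr17:34305747-34305866 on the plus strand for H2-Eb1. CTGATTGG was searched on both strands of the 300 bases around each start, where 1346 of 32851 promoters (4.1%) held it, and it began 51 bases before the start of H2-Aa and 62 before that of H2-Eb1. The motif was not found in the promoters of Cd209a, Mgl2 or Siglech. H2-Ab1 and Cd74 had no entry among the promoters searched, and H2-DMb2 was not looked up. Any link of the motif to the levels reported here was not tested. A match is a description of sequence and not a measured site.

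Between libraries, 3352 genes had at least 50 CPM in 1 library and 10 UMIs over both. Of these, 351 (10.5%) were at least 2-fold higher and 339 (10.1%) at least 2-fold lower in treated members, with a median log2 ratio of -0.03. In the remaining cells 328 of 3185 (10.3%) were higher and 272 (8.54%) lower. In the remaining cells without T cell UMIs, 475 of 3353 (14.2%) were higher and 503 (15%) lower. Of 2844 genes that passed in all 3 sets of cells, 163 were at least 2-fold higher and 94 at least 2-fold lower in each of the 3. These sets share cells, so the counts are not independent of each other. Since no replicate exists, a fold here is a difference between 2 libraries.

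The 12 highest ratios, ranked by the interval bound nearest 1, included those of Thbs1, Wnt11, Lyz2, Gzmf, Plxnd1, Gtf2a1, Tppp3, Marcksl1, Gla, Crem and Jmy. All 12 were at least 2-fold higher in the remaining cells, and 10 of the 11 with a ratio were so in remaining cells without T cell UMIs. The 12 were picked in all members, and the remaining cells hold 30 of the same 31 treated cells. These 2 counts thus largely follow from the choice of genes. In the T cell set 5 of the 12 were at least 2-fold higher, where 495 of all 3097 genes that passed were so. Lyz2, the lysozyme gene of myeloid cells, had 0 UMIs in the median and 13 in the highest untreated member, and 1 and 109 in the treated ones. It had UMIs in 9 of 44 and 22 of 31 members, and its level was 57.1 CPM (39.3 to 80.2) and 572.2 CPM (502 to 649), a ratio of 10 (6.94 to 14.9). In the T cell set Lyz2 was at 37 and 26.3 CPM, with a UMI in 9.43% and 4.57% of cells at median depths of 5578.5 and 6257 UMIs. After every cell had been thinned to 2000 UMIs, which kept all members, Lyz2 was seen in 6.82% and 38.7% of members and in 3.42% and 1.57% of the T cell set.

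Crem, which encodes a cyclic AMP response modulator, had a median of 0.5 and a highest value of 16 UMIs in untreated members and 6 and 41 UMIs in treated ones. Its level was 133.3 and 634.4 CPM, a ratio of 4.76 (3.68 to 6.22). The ratio was 3.8 in the remaining cells, 2.49 in remaining cells without T cell UMIs and 7.17 in the T cell set. Marcksl1, an actin regulator gene, was at 34.6 and 217.9 CPM, a ratio of 6.29 (3.85 to 10.8). Plxnd1, a semaphorin receptor gene, had UMIs in 5 of 44 and 21 of 31 members, at 12.1 and 107.7 CPM. At 2000 UMIs per cell, Crem was seen in 11.4% and 54.8% of members and in 16.7% and 71.8% of the T cell set. Plxnd1 was seen in 0% and 19.4% of members and in 0.789% and 1.52% of the T cell set. Some of the 12 rested on few cells. Thbs1 had 1 UMI in the untreated members and UMIs in 4 treated cells, and Gzmf had 1 UMI in the untreated members and 23 UMIs in 1 treated cell.

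The 12 lowest ratios belonged to Klk1, Siglech, Ccl4, Irf8, Ly6d, Paqr5, Cox6a2, Upb1, Mzb1, Pir, Ctsl and Ly6c2. Klk1, Siglech, Ly6d and Cox6a2 are 4 of the genes that defined the plasmacytoid-gene cells. Siglech was at 661.2 CPM in untreated and 43.1 CPM in treated members, a ratio of 0.0652 (0.0382 to 0.104), and the treated UMIs all came from 1 cell. Only 5 of the 12 had a ratio in the remaining cells, and 4 of those were at least 2-fold lower. Irf8, a factor of plasmacytoid cells and cDC1, had a ratio of 0.0982 in all members, 0.262 (0.174 to 0.385) in the remaining cells and 0.691 (0.309 to 1.62) in remaining cells without T cell UMIs, where it was 1.47 without the highest cells. Ctsl, a cathepsin gene, was at 784.1 and 93.4 CPM in all members, with a ratio of 0.119, and at 74.8 and 51.7 CPM in the remaining cells, where 1 untreated cell held 26 of 30 Ctsl UMIs and the ratio without the highest cells was 4.47.

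**Figure D4:**
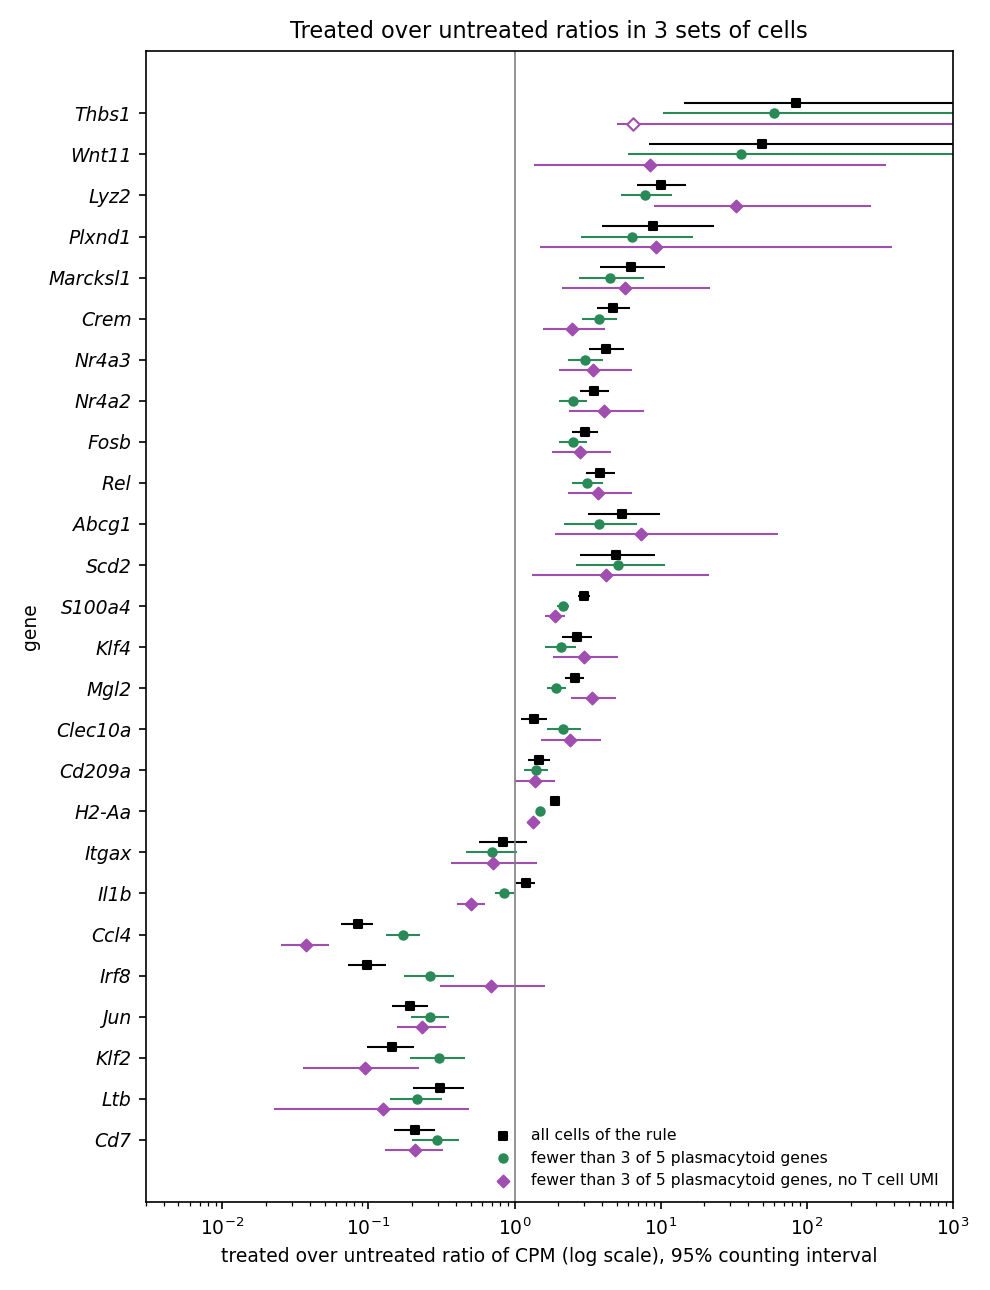
Points give the treated over untreated ratio of CPM on a log axis for 26 genes in all members, in the 51 remaining cells and in the 27 of these without T cell UMIs; lines are 95% counting intervals and run to the edge where no upper bound exists, and an open symbol is a bound from a floor of 3 counts. The ratios of Irf8 and Ccl4 differ most between the 3 sets of cells among the genes drawn below 1, whereas those of Fosb, Rel and Nr4a3 lie between 2.52 and 4.23 in each.

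Among genes of cDC2 identity, 14 of 20 passed the minimum. Of these, 4 were at least 2-fold higher (S100a4, Notch2, Klf4 and Mgl2) and 2 lower (Cd7 and Ltb), with a median log2 ratio of 0.46. The median was 0.31 in the remaining cells and -0.061 in remaining cells without T cell UMIs. The summed list was still higher there in treated cells, at medians of 53.6 (untreated) and 81.4 (treated) per 10000 UMIs. Its ranges overlapped, at 32.4 to 88.5 and 36.1 to 137.2 per 10000. S100a4, a calcium-binding protein gene, had 0 UMIs in the median and 88 in the highest untreated member, and 42 and 117 UMIs in the treated ones. Its ratio was 2.99 in all members, 2.14 (1.95 to 2.35) in the remaining cells and 2.96 in the T cell set. Klf4 had UMIs in 23 of 44 and 29 of 31 members, at 192.1 and 517.1 CPM, a ratio of 2.69 (2.13 to 3.42). The ratio was 2.07 in the remaining cells, 2.98 in remaining cells without T cell UMIs and 2.46 in the T cell set. At 2000 UMIs per cell Klf4 was seen in 18.2% and 48.4% of members and in 4.12% and 9.9% of the T cell set. Mgl2 had a median of 1 and a highest value of 80 UMIs in untreated members and 13 and 68 in treated ones, with ratios of 2.59, 1.93 and 3.41 in the 3 sets of cells.

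Other genes of the label differed little or went the other way. Cd209a had 1, 3 and 32 UMIs in the lowest, median and highest untreated member and 1, 5 and 31 in the treated ones, so the groups overlapped over their whole range. Sirpa had a ratio of 1.4 (1.03 to 1.89) and Itgam of 1.54 (1 to 2.39) in all members. In the remaining cells Itgam was at 107.2 and 118.1 CPM. Il1r2 was lower in treated cells, with a ratio of 0.605 in all members and 0.432 (0.353 to 0.527) in the remaining ones. Ltb, a lymphotoxin gene that T cells carry too, was at 354.1 and 76.3 CPM in the remaining cells, a ratio of 0.215 (0.141 to 0.32), and its ratio was 0.682 in the T cell set. Cd7 was at 336.7 and 98.4 CPM in the remaining cells, a ratio of 0.292 (0.2 to 0.419), and was at least 2-fold lower in the T cell set too. T cell transcripts differed in the same direction, with Cd3e at 284.3 and 78.8 CPM in the same cells. In the remaining cells without T cell UMIs the ratios of Ltb and Cd7 were 0.127 and 0.208.

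Genes shared by conventional dendritic cells had a median log2 ratio of 0.42 over 14 of 15. Kit and Tbc1d4 were at least 2-fold higher and Irf8 and Bcl11a lower. The median was 0.15 and 0.18 in the 2 narrower sets (the remaining cells, and those of them without T cell UMIs). Without the highest cells it was 0.28 in all members and -0.097 and -0.016 in the narrower sets. Flt3 had a ratio of 1.9 (1.2 to 3.02) in all members and 2.89 (1.58 to 5.6) in the remaining cells. Kit, a growth factor receptor gene, was at 24.2 and 91 CPM. Tbc1d4 had a ratio of 2.13 in all members and 0.683 (0.385 to 1.24) in remaining cells without T cell UMIs, where it was 0.999 without the highest cells. Itgax, which encodes CD11c, had a ratio of 0.84 (0.575 to 1.22), and Zbtb46 was under 50 CPM in both libraries.

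Of 14 class II presentation genes, 12 passed and none was 2-fold higher or lower, with a median log2 ratio of 0.51, and of 0.21 and 0.081 in the 2 narrower sets. H2-Aa had 1, 32.5 and 259 UMIs in the lowest, median and highest untreated member and 8, 156 and 302 in the treated ones. Its ratio was 1.9 in all members, 1.5 (1.43 to 1.57) in the remaining cells and 1.34 (1.25 to 1.45) in remaining cells without T cell UMIs. H2-Ab1 had ratios of 1.94, 1.49 and 1.49, and H2-Eb1 had 1.85, 1.4 and 1.48. H2-DMb2, a subunit of the peptide loading factor, went the other way at 0.795, 0.581 and 0.395. Ciita, the class II transactivator gene, had a ratio of 0.885 (0.636 to 1.22), and Lgmn, an endosomal protease gene, of 0.596 (0.357 to 0.968).

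Costimulation and coinhibition genes had a median of 0.48 over 8 of 15, with Icam1 and Tnfrsf1b higher and none lower. The median was -0.20 in the remaining cells, where Lgals9 and Cd200r1 were at least 2-fold lower. It was 0.29 in remaining cells without T cell UMIs, where Cd274 was lower too. Without the highest cells it was 0.57 in all members, -0.145 in the remaining cells and -0.027 in those without T cell UMIs. In all members without a T cell UMI the median was 1.92. Those were 24 untreated and 20 treated cells, of which 7 and 20 were remaining cells. The other untreated cells there were plasmacytoid-gene cells. Icam1, an adhesion ligand gene, was at 64 and 191.5 CPM, with ratios of 2.99, 2.92 and 2.95 in the 3 sets of cells and 2.19 in the T cell set. Cd86 had a ratio of 1.21 (0.898 to 1.62) in all members and 0.87 (0.646 to 1.17) in the remaining cells. Cd274, which encodes PD-L1, had a ratio of 0.889 (0.527 to 1.48). Lgals9 had a ratio of 0.546 (0.279 to 1.02).

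C-type lectins and Fc receptors had a median of 0.46 over 14 of 21, with Fcgr2b, Mrc1, Clec4a3 and Mgl2 higher and Fcgr1 lower. The median was 0.48 in the remaining cells and 0.86 in remaining cells without T cell UMIs. Mrc1, the mannose receptor gene, had UMIs in 5 of 44 and 13 of 31 members (0% and 9.68% at 2000 UMIs per cell, against 0.197% and 0.0716% of the T cell set), at 13.9 and 95.8 CPM. Clec10a had ratios of 1.36 (1.1 to 1.68) in all members, 2.16 in the remaining cells and 2.39 in remaining cells without T cell UMIs, so its ratio was above 2 in both narrower sets. Fcgr1, the high-affinity IgG receptor gene, had a ratio of 0.428 (0.211 to 0.813), and Clec12a of 0.511 (0.306 to 0.827).

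Toll-like receptor genes had a median of 0.09 over 5 of 18, and of -0.0043 and -0.30 in the 2 narrower sets. Tlr2 had a ratio of 3.32 (2.05 to 5.53) in all members and 0.938 in remaining cells without T cell UMIs (1.88 without the highest cells), and Cd14 had 2.16 (1.45 to 3.24). Nlrp3, an inflammasome sensor gene, had a ratio of 0.461 (0.271 to 0.757). Unc93b1, which carries endosomal Toll-like receptors, had 0.573 in all members and 0.997 (0.744 to 1.34) in the remaining cells.

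Cytokine genes had a median of 0.09 over 4 of 19, and of -0.19 and -0.022 in the 2 narrower sets. Il1b had 0 UMIs in the median untreated member and 144 in the highest, and 3 and 47 in the treated ones. Its ratio was 1.2 (1.03 to 1.39) in all members, 0.854 in the remaining cells and 0.502 in remaining cells without T cell UMIs, where 1 of 7 untreated cells held 144 of 147 Il1b UMIs. Without the highest cell of each library the Il1b ratio was 1.71 in all members and 1.21 in the remaining cells. It was 17.6 in remaining cells without T cell UMIs, where only 3 untreated UMIs were left. The direction in both narrower sets thus turned without the highest cells. A second untreated remaining cell held 132 of the 386 untreated Il1b UMIs, so the values of 1.71 and 1.21 still rest largely on 1 cell. Osm, a cytokine of the interleukin-6 family, was at 20.8 and 52.7 CPM. Areg, an epidermal growth factor receptor ligand, was at 109 and 12 CPM, from 3 and 4 cells, and 1 untreated cell held 60 of 63 untreated UMIs. Its log2 ratio turned to 2.05 without cells with T cell UMIs. Tgfb1 had a ratio of 0.951 (0.729 to 1.24).

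Chemokine genes had a median of -1.35 over 10 of 18, with Ccl6, Ccl9 and Cxcl16 higher and Ccl3, Ccl4, Ccl17, Cxcl2 and Cxcl10 lower. Ccl4, an inflammatory chemokine gene, had 1 UMI in the median and 368 in the highest untreated member and 0 and 26 in the treated ones, at 1902 and 160.4 CPM. It was at 4051 CPM in the 23 untreated plasmacytoid-gene cells, of which 18 had UMIs. In the remaining cells Ccl4 was at 955.1 and 164.9 CPM, a ratio of 0.173 (0.131 to 0.224), with UMIs in 7 of 21 and 10 of 30 cells. One untreated cell held 368 of those 383 UMIs, and without the highest cell of each library Ccl4 was at 38.2 and 106.1 CPM, a ratio of 2.78, so the direction in the remaining cells turned. Ccl3 turned there in the same way, from a ratio of 0.122 to 1.83. In all members Ccl4 kept a ratio of 0.0803 without the highest cells. Ccl17, a ligand of CCR4 made by many type 2 dendritic cells, had 70 UMIs in 1 untreated member and 6 UMIs over 4 treated members, and its log2 ratio turned to 1.32 when 2 or more UMIs of each required gene were asked for. Cxcl10 came from 5 untreated and 7 treated cells. Ccl9 and Ccl6 were more widely seen, with UMIs in 7 and 9 of 44 untreated and 22 and 21 of 31 treated members, at 36.4 and 148.4 CPM for Ccl9 and 48.5 and 148.4 CPM for Ccl6. At 2000 UMIs per cell Ccl9 was seen in 6.82% and 22.6% of members and Ccl6 in 6.82% and 25.8%, against at most 0.717% of the T cell set. The list's median was -1.83 in the remaining cells, 0.56 in remaining cells without T cell UMIs and 1.86 in all members without T cell UMIs, so its sign turned with that choice. Plasmacytoid-gene cells were most of the untreated members without T cell UMIs and none of the treated ones.

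Chemokine and growth factor receptor genes had a median of 0.11 over 13 of 17, with Csf1r higher and Ccr9, Ccr1 and Ifnar1 lower, and of -0.033 and 0.34 in the 2 narrower sets. Csf1r, a receptor gene of macrophage growth factor, was at 55.4 and 126.9 CPM. Ccr1 had ratios of 0.161, 0.116 (0.0537 to 0.224) and 0.338 in the 3 sets of cells. Ccr2, which guides cells from blood, had a ratio of 1.4 (1.02 to 1.93) in all members and 0.863 (0.508 to 1.51) in remaining cells without T cell UMIs. Cxcr4 had a ratio of 2 (1.47 to 2.73).

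Type I interferon-stimulated genes had a median of -1.12 over 5 of 16, with Isg15, Irf7 and Bst2 lower and none higher. Isg15, a ubiquitin-like modifier, was at 263.1 and 114.9 CPM in all members and 376.6 and 118.1 CPM in the remaining cells, a ratio of 0.314 (0.222 to 0.437). Bst2 had a ratio of 0.257 in all members and 0.718 (0.552 to 0.93) in the remaining cells. When the rule was applied after thinning to 2000 UMIs per cell, the list's median was 0.026 and the log2 ratio of Isg15 was 0.51, so both turned. Oasl2 had a ratio of 1.04 (0.606 to 1.76) in all members. The list's median was -0.71 over 9 genes in the remaining cells and -1.66 over 7 in remaining cells without T cell UMIs. In the latter 6 of 7 were at least 2-fold lower, among them Bst2 at 0.393 (0.268 to 0.578), Isg15 at 0.317 and Oasl2 at 0.464 (0.179 to 1.22). Without the highest cells these 3 ratios were 0.723, 0.264 and 0.995.

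Immediate early genes split within their list. Over 18 of 21 the median was -0.27, with Atf3, Nr4a2, Nr4a3, Fosl2 and Fosb higher and Jun and Klf2 lower. It was -0.41 and -0.77 in the 2 narrower sets, and in the narrowest 7 genes were lower (Btg2, Ier5, Jun, Klf2, Ier2, Nr4a1 and Egr1). Nr4a2, an orphan nuclear receptor gene, had 0 UMIs in the median and 19 in the highest untreated member and 7 and 33 in the treated ones, at 195.6 and 689.5 CPM. The ratios of Nr4a2 were 3.52, 2.52 and 4.13 in the 3 sets of cells, and 6.71 in the T cell set. Nr4a3 had ratios of 4.23, 3.04 and 3.46, and Fosb of 3.03, 2.52 and 2.81. Jun had a median of 6.5 UMIs in untreated and 1 in treated members, with ratios of 0.193, 0.265 and 0.233. Klf2, a factor of quiescence and trafficking, had ratios of 0.144, 0.302 and 0.0953. In the T cell set Nr4a3 had a ratio of 13.5, Fosb of 3.81, Jun of 0.379 and Klf2 of 0.101, so these genes lay on the same side of 1 there.

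Genes that report ERK output were sparse. Only 3 of 17 passed, with a median of 0.23 and none at least 2-fold different. In the 2 narrower sets 4 passed, with medians of 0.077 and -0.34. Dusp6, an ERK phosphatase gene, had 5 UMIs over 4 of 44 untreated members and none in 31 treated members, and Spry2, a feedback inhibitor, had 8 UMIs over 6 members and none. The treated floor of 3 counts stood at 7.18 CPM, against 8.65 CPM of Dusp6 and 13.9 CPM of Spry2 in untreated members, so a difference in Dusp6 was not detectable at this depth. For Spry2 the ratio interval ended at 0.81, but Spry2 had too few UMIs to pass the minimum, so no fall is called. In the T cell set Spry2 went the other way and was at least 2-fold higher in treated cells. Egr1 was at 46.7 and 40.7 CPM, a ratio of 0.871 (0.445 to 1.66), whereas it had a ratio of 3.62 in the T cell set. Dusp5 had a ratio of 0.967 (0.734 to 1.27), Ccnd1 of 1.18 (0.879 to 1.57) and Ier3 of 1.58 (1.06 to 2.38).

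All 15 NF-kB output genes passed, with a median of 0.12 (0.012 and -0.060 in the 2 narrower sets) and with Rel and Tnfaip3 higher. Rel, an NF-kB subunit gene, had 1 UMI in the median untreated and 7 in the median treated member, with highest values of 18 and 30. It was at 188.7 and 730.2 CPM, with ratios of 3.87, 3.15 and 3.75 in the 3 sets of cells. Tnfaip3, a feedback inhibitor, had ratios of 2.71, 2.18 and 1.58 (0.709 to 4). Both Rel and Tnfaip3 were at least 2-fold higher in the T cell set too. Nfkb2 had a ratio of 0.88 (0.484 to 1.57) and Nfkbid of 0.793 (0.521 to 1.19).

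Heat shock genes had a median of -0.12 over 10 of 12, with Hspa1a, Hspa1b and Dnajb1 lower, and of -0.12 and 0.37 in the 2 narrower sets. Hspa1a came from 12 of 44 untreated members, 1 of which held 112 UMIs, and its ratio was 0.118 in all members and 0.61 (0.241 to 1.62) in remaining cells without T cell UMIs, where it was 2.92 without the highest cells. Hspa5 had a ratio of 1.47 (1.26 to 1.71) and Dnaja1 of 1.75 (1.44 to 2.14). In the T cell set Hspa5 and Dnaja1 were at least 2-fold higher, and Hspa1a and Hspa1b at least 2-fold lower. Glycolysis genes had a median of -0.27 over 13 of 14 (-0.43 and -0.17 in the 2 narrower sets) and none passed 2-fold in all members. The lowest and highest of them were Gpi1 at 0.521 (0.41 to 0.656) and Hk2 at 1.73 (1.02 to 2.95).

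Sterol and lipid genes had a median of 0.30 over 7 of 16, with Abcg1 and Scd2 higher. It was 1.01 in the remaining cells and 0.65 in remaining cells without T cell UMIs. Without the highest cells it was -0.23 in all members, -0.027 in the remaining cells and 0.47 in those without T cell UMIs. Its sign in all members and in the remaining cells thus turned without the highest cells. The genes that passed changed with that choice, from 7 to 6 in all members and from 6 to 7 in the remaining cells. These medians are therefore not over the same genes. Abcg1, a cholesterol exporter gene, had UMIs in 11 of 44 and 23 of 31 members (2.27% and 22.6% at 2000 UMIs per cell, against 7.44% and 16.4% of the T cell set), at 29.4 and 160.4 CPM, with ratios of 5.45, 3.77 and 7.39 in the 3 sets of cells and 2.84 in the T cell set. Scd2, a fatty acid desaturase gene, was at 27.7 and 136.5 CPM, with ratios of 4.93, 5.11 and 4.22. Scd2 was at least 2-fold higher in the T cell set too. Fabp5 had a ratio of 0.633 (0.42 to 0.94) and Srebf2 of 0.846 (0.559 to 1.27). Cell cycle genes of the G2M and S phases had a median of -1.95 over 9 of 18, with 6 lower and Pcna higher. Cenpf had 32 untreated UMIs and 1 treated UMI, and Cdk1 had 30 and 1. Per 10000 UMIs the summed list had medians of 2.08 in untreated and 3.45 in treated members, so the typical treated cell was not lower. One untreated cell held 282 of the 802 untreated UMIs and 1 treated cell 90 of 235. Without these cells 6 genes passed, 5 of them lower. Mki67 had a ratio of 0.653 (0.344 to 1.19) in all members, 0.466 (0.245 to 0.851) in the remaining cells and 0.0264 in remaining cells without T cell UMIs, where 1 untreated cell held all 16 UMIs. The list's median was -2.42 in the remaining cells and -3.83 in remaining cells without T cell UMIs, with 10 of 11 genes lower in each. In the latter, 282 of 296 untreated UMIs came from 1 cell, and without the highest cells only 2 genes passed, with a median of 0.74. Pcna, a replication clamp gene, had a ratio of 3.03 (1.63 to 5.85) in all members and was at least 2-fold higher in the T cell set too.

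Plac8, a monocyte list gene named after its values were seen, was lower in treated members. It had 2 UMIs in the lowest, 22 in the median and 96 in the highest untreated remaining cell, and 0, 1 and 27 in the treated ones. The median depths of these cells were 18275 (untreated) and 12796.5 (treated) UMIs. Every untreated member had UMIs of Plac8, against 18 of 31 treated members, and at 2000 UMIs per cell it was seen in 90.9% and 41.9%. Its level was 1541 and 248.5 CPM in the remaining cells, a ratio of 0.161 (0.129 to 0.199), and 2630 and 362.2 CPM in remaining cells without T cell UMIs. In the T cell set Plac8 was at 432 and 517 CPM, a ratio of 1.2, with a UMI in 30.8% and 39.1% of cells at 2000 UMIs. Plac8 is high in the plasmacytoid-gene cells too, at 3298 CPM.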

How the data were processed

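Single-cell 3' libraries of 2 groups, 1 per group, were used. Per the submitters' processing notes, the tools were Cell Ranger and Seurat (versions not given in the sources used here), and the build named is human GRCh38, although gene symbols are mouse symbols. The authors deposited natural log values, ln(1 + x), where x is a gene's UMIs per 10000 in that cell, for 15121 genes in 17390 cells. The smallest value of each cell was taken as 1 UMI, and 38204229 of 38204229 nonzero values were then whole within 0.01. These UMIs were used, and means on the deposited natural log scale, which the design held for values that are not counts, were kept as an alternative.

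UMIs were summed over the cells of a set and given as CPM of the sum, with 95% intervals that were exact Poisson for levels, conditional binomial for ratios and Clopper-Pearson for shares. No test was possible. Genes at 0 over a whole library (1123) were treated as not measured there, which left 13998. Called means at least 2-fold among genes with 50 CPM in 1 library and 10 UMIs over both. A floor of 3 counts over the set stood for 0. Named were the 12 highest and 12 lowest ratios (50 CPM and 20 UMIs in 1 library, ranked by the bound nearest 1, without ribosomal, mitochondrial, predicted, sex-linked and receptor segment genes), the 2 highest and 2 lowest of each of 17 gene lists, 18 genes always, and 15 markers. Some genes that this rule names are not reported here. Other genes were chosen with their values known: those that describe the plasmacytoid-gene cells, T cell transcripts, comparison sets and list calls, and Plac8. Members, lists and comparison sets were chosen with earlier results of these data known. The split by plasmacytoid genes and the values without the highest cells were added after the values were seen. Ratio steps were tested on simulated data. Software was scipy 1.17.1, pandas 2.3.3, numpy 2.4.6 and matplotlib 3.10.9 on Python 3.11.15.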

Additional observations from a re-analysis of the deposited data

How the results depend on the processing

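Without member cells with a T cell UMI, the share of members was 0.258% of untreated and 0.248% of treated cells, 601 genes were at least 2-fold higher and 661 lower, and the chemokine median (1.86, log2) and Areg (2.05) turned upward. Of these 24 untreated and 20 treated cells, 7 and 20 were remaining cells, and the other untreated ones were plasmacytoid-gene cells. The libraries therefore differed in plasmacytoid-gene cells under that setting too. The untreated share was 0.322% with 2 or more UMIs of each required gene, 0.709% with no gene required at 0 and 0.223% when the rule followed thinning. Leaving out plasmacytoid-gene cells, chosen after seeing the data, gave 0.226% untreated, and leaving out T cell UMIs as well gave 0.0752% untreated and 0.248% treated. Minimums of 20 and 200 CPM gave 703 and 61 higher and 839 and 68 lower genes, as more or fewer genes were tested. Signs turned for Ccl17 with 2 or more UMIs (1.32) and with no gene required at 0 (0.23), and for Gzmf (-0.23) with no gene required at 0. They turned for Areg (1.29) without the highest 5% of UMI totals, and for the interferon median (0.026) and Isg15 (0.51) after thinning. They turned for Rnase6 (0.39) without plasmacytoid-gene cells. Without these cells or T cell UMIs they turned for the chemokine median (0.56), Tbc1d4 (-0.55), Tlr2 (-0.092), Areg (0.76) and Hspa1b (0.46), and on the deposited natural log scale for the chemokine median (0.0481). The cause was not tested. Leaving out each library's highest cell for a gene, also chosen after seeing the data, turned Areg (0.41) and Ccl17 (0.90). Of gene ratios recomputed under alternatives, 1040 stayed within the reported counting interval, 258 left it and 13 with a reported fold of 2 or more turned sign, and of list medians 196, 37 and 4 did so. Members were few, so 1 cell can set a ratio, as for Gzmf and Ccl17. No paired analysis was possible because each group had 1 library, and no replicate could be left out.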

Other observations

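Plasmacytoid-gene cells outside the rule were compared with those inside it. The untreated library held 147 other cells with 3 or more of the 5 plasmacytoid genes, against 23 in the rule, with medians of 7840 and 7650 UMIs. Beyond Cd209a, H2-Aa and H2-Eb1, which the rule requires, Siglech was at 1652.5 CPM in the other cells and 2087.6 CPM in the 23. Ccl4 was at 3947.3 and 4050.8 CPM. Ighm was at 1042.3 and 1041 CPM, Irf8 at 2759 and 3179.6 CPM and Bcl11a at 486.7 and 503.5 CPM. The summed class II genes had medians of 107 and 134 per 10000, with lowest cells at 0 and 19.7. Part of this difference is built in, because the rule asks for UMIs of 2 of these class II genes. Cd209d, a neighbouring lectin gene family member, was at 177.2 CPM in the other cells and 390.4 CPM in the 23, Clec10a at 348.8 and 582.7 CPM, and Mzb1, a chaperone gene of antibody-secreting cells, at 203.7 and 441.3 CPM. Cd8b1 was at 350.4 and 390.4 CPM. The treated library held 14 other cells of this kind and 1 in the rule. These groups were defined from measured values and no difference was tested.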
